A study of Homo sapiens with 38 samples.

Results

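The 49 nuclear genes examined here encode subunits of complexes I, II and III of the mitochondrial respiratory chain, 36 of complex I (the NDUF genes), 4 of complex II (the SDH genes) and 9 of complex III (the UQCR genes and CYC1). The rule that picks them is their name and uses no measured value, but the list was proposed with earlier results of these data known. Each was followed through 1 probe, its brightest on average over the arrays among those whose transcript accession belongs to the gene. All 49 had a probe, out of 19720 genes that a probe could be matched to, and 11 of them had more than 1. NDUFA4, which was named as a complex I subunit, is today counted with complex IV, and it was kept here with complex I as its symbol has it.

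RNA was measured on 38 single-dye arrays of A549, a line of human alveolar epithelial origin. The cells were cultured with serum and then held in serum-free medium with or without fumed silica nanoparticles (SiO2 NPs). Cells were exposed for 24 h to 0.1 or 1.0 μg/cm2 (4 arrays each, sharing 4 arrays of unexposed cells), to 1.5 μg/cm2 (4 arrays and 4 unexposed ones), or to 3.0 or 6.0 μg/cm2 (3 arrays each, sharing 3 unexposed ones), and for 72 h to 3.0 or 6.0 μg/cm2 (3 arrays each, sharing 3 unexposed ones). These 3 blocks of arrays are called sets A, B and C, the last one holding all arrays of 3.0 and 6.0 μg/cm2. A549 is a tumour-derived line and stands for alveolar epithelium only in part, and the labels give 72 h for the later exposed cells in one field and 24 h in another, of which the first was used.

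The respiratory chain lies in the inner membrane of the mitochondrion and passes electrons from nutrients to oxygen. Complex I takes electrons from NADH through a flavin and a row of iron-sulfur clusters held by its core subunits, around which many small accessory subunits are needed for assembly and stability. Complex II, which is also an enzyme of the citric acid cycle, takes them from succinate, and both hand them to ubiquinone. Complex III carries them on to cytochrome c and, like complex I, pumps protons. Some subunits of complexes I and III are encoded by mitochondrial DNA, and those were not analysed here. Lung epithelial cells depend on this chain for ATP, and complexes I and III are known sites where superoxide can form.

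The signal was an intensity, given here as log2 after each array's 75th percentile had been subtracted, so that 0 is the 75th percentile of an array. The processed signal at that percentile ranged from 740.4 to 3202 over the 38 arrays, no spot was saturated, and 57.9% to 75.3% of spots were well above background. On all 38 arrays 47 of the 49 members were well above background, and NDUFA3 and NDUFB7 on 37, with 1 array of the unexposed cells of set B missing for both, so that their fits at 1.5 μg/cm2 used 3 unexposed arrays. The epithelial markers KRT8, KRT18, KRT19, CDH1 and EPCAM were well above background on all 38 arrays, as were the leukocyte markers CD14 and CD68, a probe of PTPRC, and the fibroblast marker COL1A1. The fibroblast markers COL3A1, DCN and LUM were so on 2, 1 and 31 arrays, and the endothelial markers PECAM1, VWF and CDH5 on 4, 27 and 37. In set A, the first and second arrays of a group, and likewise the other two, were closer to each other than to the remaining ones, with correlations over probes of 0.9986 to 0.9991 inside these pairs and 0.9878 to 0.9952 across them. The exposed arrays of set B paired in the same way (0.9984 and 0.9985 inside, 0.9898 to 0.9914 across), but the first 2 unexposed arrays of set B did not (0.9856). Sample titles number 4 biological replicates in sets A and B where the protocol gives 3 cultures a condition, so p-values may measure technical spread in part.

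Among the 7 exposures, the largest shift of the 49 subunits was at 6.0 μg/cm2 and 24 h. There 26 of them fell and 0 rose (limma, adjusted p below 0.05 over all probes tested), against a background of 20.0% of all probes called lower and 14.2% called higher. The 26 members make 53.1% of the list. The median log2 fold change of the 49 was −0.21, that of all probes −0.03, and 45 of the 49 values were below 0. The changes were small: only NDUFB1 passed while also changing 1.5-fold or more, which 9.32% of all probes did. In bulk RNA, fewer cells of a kind and less RNA per cell cannot be told apart. The count was 15 without exposed replicate 2, 17 without control replicate 2, 8 with normexp background correction and 17 with no filter on dim probes, with 0 rising in these 4 settings. Without control replicate 1, 17 fell and 1 rose.

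Markers moved at the same dose and time. Of 5 epithelial markers KRT19 rose by 0.78 and CDH1 and EPCAM fell by 1.22 and 0.80, and their summed level (linear signal in units of the 75th percentile) was 306 to 323 against 325 to 354 in unexposed cells. Of the 3 leukocyte markers tested CD68, a lysosomal protein, rose by 2.29 and CD14 and PTPRC fell by 0.70 and 0.63, with a summed level of 1.48 to 1.62 against 0.536 to 0.559. Of the 2 fibroblast markers tested COL1A1 fell by 1.85 (summed level of 4 markers 0.077 to 0.1 against 0.221 to 0.29), and the 1 endothelial marker tested did not pass. Their part in the result was not tested.

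**Figure D1:**
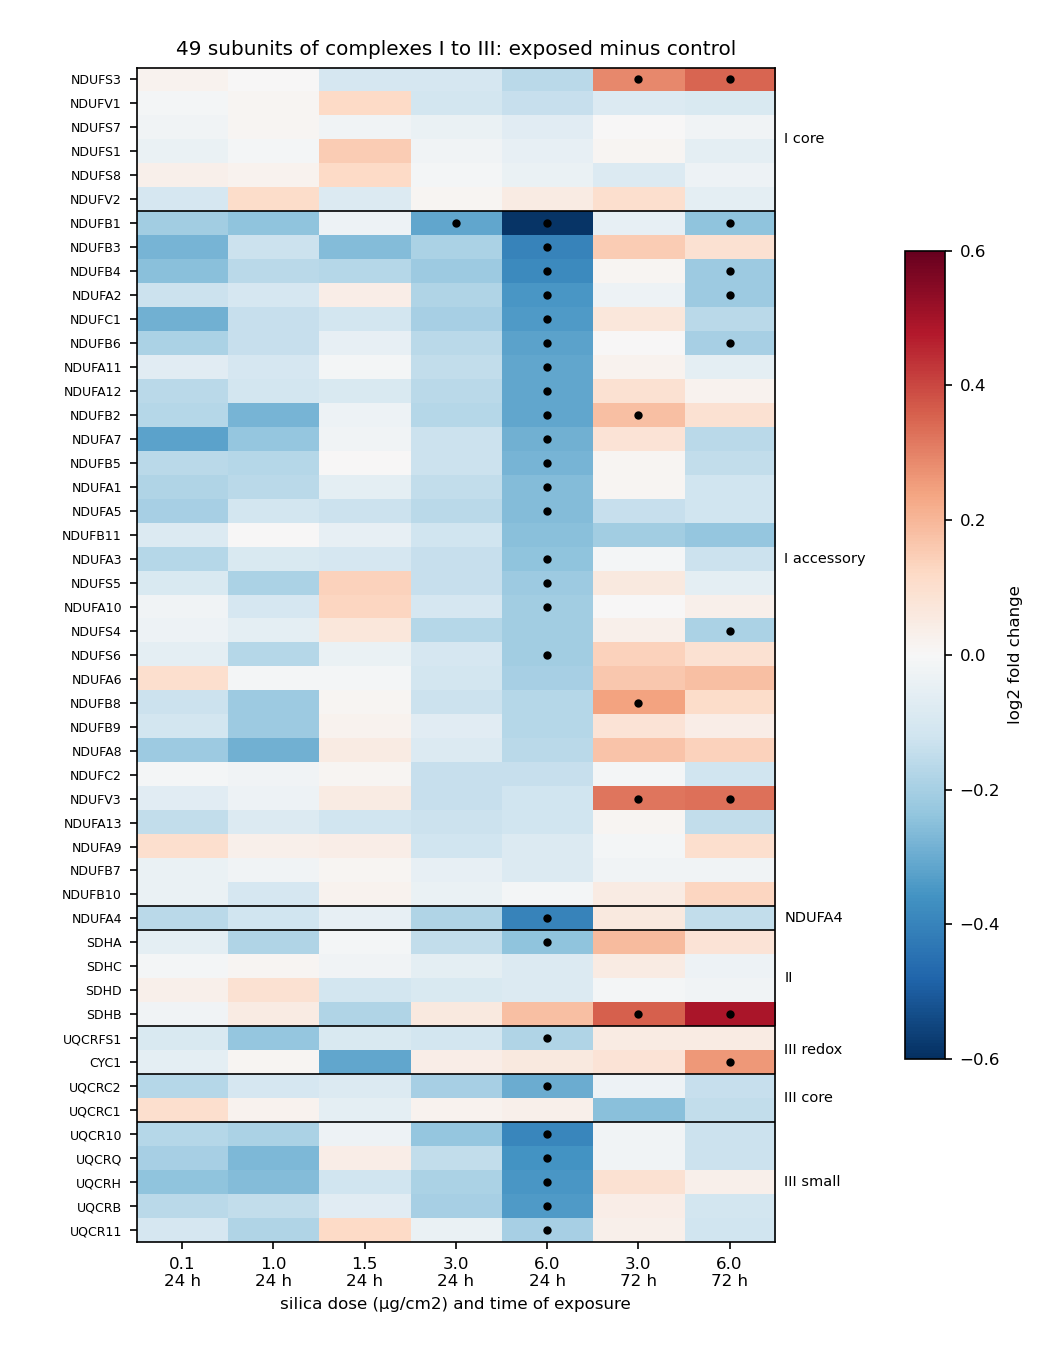
Log2 fold change (colour, exposed minus control) of the 49 subunits in the 7 comparisons with controls, with rows grouped by complex and role and ordered by the change at 6.0 μg/cm2 and 24 h; a black dot marks an adjusted p below 0.05 (limma). The column at 6.0 μg/cm2 and 24 h holds 26 dots, all on negative values, and the columns at 72 h hold 5 and 9.

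In complex I, 18 of 36 subunits fell at 6.0 μg/cm2 and 24 h, 17 of them among the 29 accessory subunits and the other being NDUFA4. NDUFB1, a small accessory subunit of the membrane arm, was at 4.68, 4.45 and 4.48 on the unexposed arrays, at 4.23, 4.28 and 4.15 at 3.0 μg/cm2, and at 3.99, 3.96 and 3.90 at 6.0 μg/cm2. No array of either dose reached the lowest unexposed one, and the 2 doses did not overlap. Its log2 fold change was −0.31 ± 0.08 (SE) at 3.0 μg/cm2 (adjusted p = 0.0454, limma) and −0.59 ± 0.08 at 6.0 μg/cm2 (adjusted p = 0.00194, limma). NDUFA4 was at 5.93, 5.86 and 5.83 without silica and at 5.51, 5.45 and 5.44 at 6.0 μg/cm2, where it fell by 0.40 ± 0.05 on the log2 scale (adjusted p = 0.00225, limma). Its exposed arrays lay below all unexposed ones. The other accessory subunits that fell did so by 0.21 to 0.40, the larger changes being those of NDUFB3 (−0.40), NDUFB4 (−0.38), NDUFA2 (−0.35), NDUFC1 (−0.34) and NDUFB6 (−0.32). Then came NDUFA11, NDUFA12 and NDUFB2 at −0.31, NDUFA7 at −0.29, NDUFB5 at −0.28, NDUFA1 and NDUFA5 at −0.26, NDUFA3 at −0.24, NDUFS5 at −0.22, and NDUFA10 and NDUFS6 at −0.21. Less bright probes of NDUFA10 (−0.04) and NDUFB5 (−0.15) did not pass, while that of NDUFA12 (−0.31) did. The 12 accessory subunits that did not pass (NDUFA6, NDUFA8, NDUFA9, NDUFA13, NDUFB7, NDUFB8, NDUFB9, NDUFB10, NDUFB11, NDUFC2, NDUFS4 and NDUFV3) had values from −0.25 to −0.01.

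None of the 6 core subunits of complex I passed the test at this dose (limma). At an unadjusted p below 0.05, 1 of them was lower, as were 5860 of the 22174 probes tested. NDUFV1, which binds NADH and the flavin, was at 4.25, 4.25 and 4.24 in unexposed cells and at 4.01, 4.13 and 4.18 in exposed ones (log2 fold change −0.14 ± 0.06, adjusted p = 0.128, limma). The subunits that carry iron-sulfur clusters had values of 0.05 ± 0.08 for NDUFV2, −0.05 ± 0.05 for NDUFS1, −0.07 ± 0.07 for NDUFS7 and −0.04 ± 0.07 for NDUFS8, and NDUFS3, a core subunit of the arm that faces the matrix, had −0.16 ± 0.06 (SE in each case). The median over the core subunits was −0.06, and over the accessory ones −0.24. The difference between these medians was not tested.

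In complex II, SDHA was the only one of 4 members to pass. SDHA, the flavoprotein that oxidizes succinate, was at 3.80, 3.73 and 3.68 in unexposed cells and at 3.59, 3.48 and 3.40 at 6.0 μg/cm2 and 24 h, without overlap (log2 fold change −0.24 ± 0.07, adjusted p = 0.0345, limma). Its other 3 probes gave −0.16, −0.17 and −0.09 and did not pass, the call was lost in 8 of 17 alternatives, among them each that left out a control array, and transcripts of SDHA pseudogenes could bind such probes. SDHB, the iron-sulfur subunit, had a positive value, 0.18 ± 0.07 (adjusted p = 0.107, limma), and the membrane anchors SDHC and SDHD had −0.08 each. The less bright probes of SDHC disagreed, with −0.28, which passed, and 0.18, which narrowly did not.

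In complex III, 7 of 9 subunits fell. All 5 small subunits were among them: UQCR10 by 0.39 ± 0.06, UQCRQ by 0.36 ± 0.07, UQCRH by 0.35 ± 0.07, UQCRB by 0.34 ± 0.07 and UQCR11 by 0.20 ± 0.06 on the log2 scale. UQCR10 was at 5.08, 4.89 and 4.92 on unexposed arrays, at 4.75, 4.74 and 4.73 at 3.0 μg/cm2 and at 4.57, 4.56 and 4.58 at 6.0 μg/cm2 (adjusted p = 0.00493 at 6.0 μg/cm2, limma). UQCRQ was at 6.91, 6.71 and 6.68, then at 6.58, 6.65 and 6.61, then at 6.41, 6.44 and 6.38 (adjusted p = 0.0119 at 6.0 μg/cm2, limma). For both, the 3 groups of arrays did not overlap and followed the dose downwards. The probes of UQCR10 disagreed, with −0.44 from one of the other 2 and −0.02 from the remaining one, which did not pass, while the second probes of UQCRB (−0.51) and UQCRH (−0.27) also passed. UQCRH has a nearly identical copy, UQCRHL, which such a probe may not tell apart. UQCRC2, a core protein, fell by 0.30 ± 0.07, and UQCRFS1, the Rieske iron-sulfur protein, by 0.18 ± 0.05, from 5.99, 5.88 and 5.92 to 5.75, 5.74 and 5.77. UQCRC1 (0.03) and CYC1, cytochrome c1 (0.06), did not pass.

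**Figure D2:**
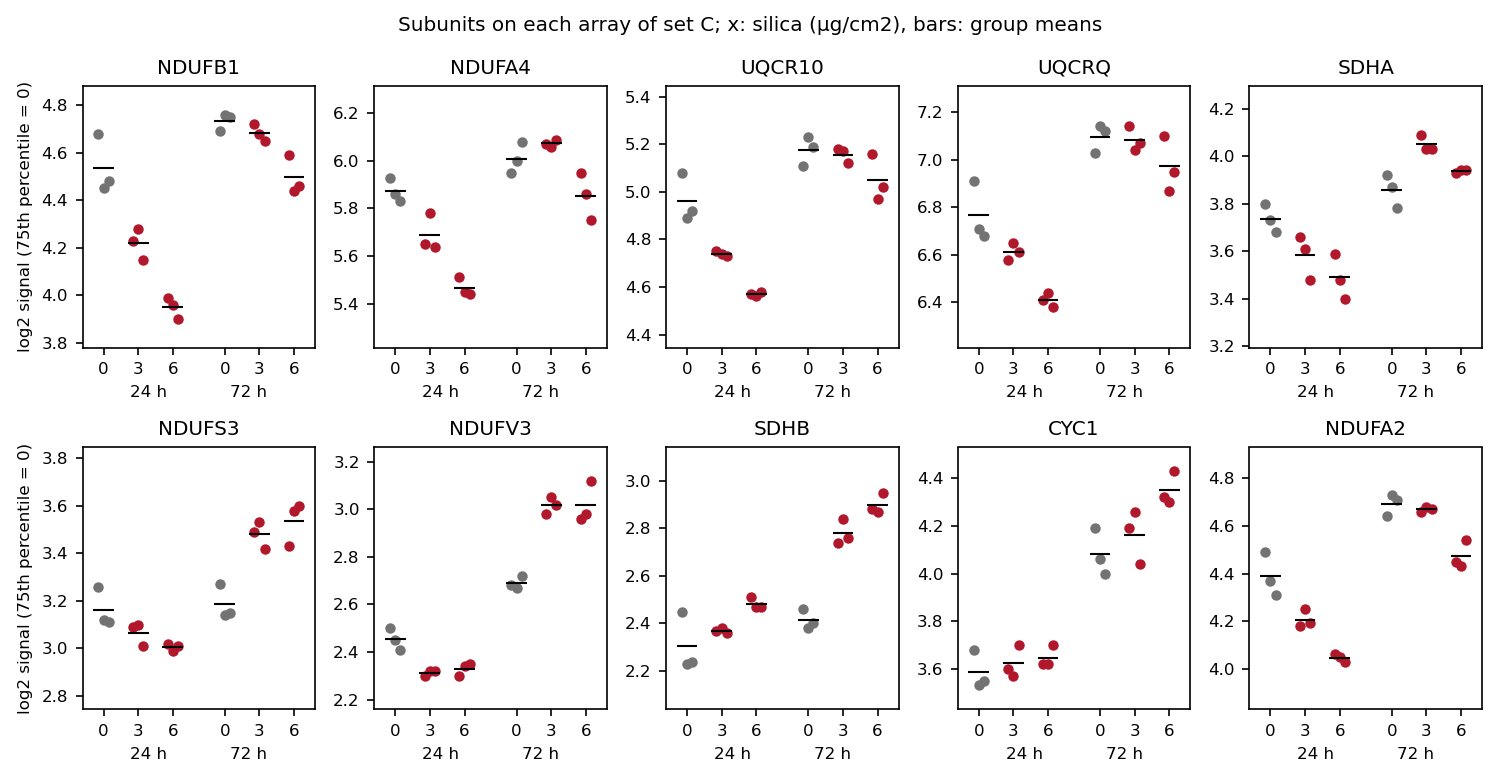
Log2 signal (75th percentile of an array = 0) of 10 subunits on each of the 18 arrays of set C, grey without and red with silica (x axis, dose in μg/cm2), with a black bar at the mean of 3 arrays. NDUFB1, NDUFA4, UQCR10, UQCRQ and NDUFA2 step down with dose at 24 h, and NDUFS3, NDUFV3 and SDHB lie above the controls at 72 h.

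To show what precedes these genes, the sequence around the transcription start is given for NDUFB1, which fell furthest in complex I at 24 h, for UQCR10 and UQCRQ, which fell furthest in complex III, and for SDHB and NDUFS3, which rose at 72 h as described below. The sequences are from RefSeq (build GRCh38.p14) and hold 150 bases before and 30 bases from the start, written 5′ to 3′ on the strand of the gene. Capitals mark matches to the motifs named afterwards.
NDUFB1 promoter, chr14:92121677-92121856, minus strand: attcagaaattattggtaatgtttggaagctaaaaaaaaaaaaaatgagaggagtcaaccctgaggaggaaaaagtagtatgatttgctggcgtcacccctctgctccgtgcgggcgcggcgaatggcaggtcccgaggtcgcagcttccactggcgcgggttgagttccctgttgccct
UQCR10 promoter, chr22:29767219-29767398, plus strand: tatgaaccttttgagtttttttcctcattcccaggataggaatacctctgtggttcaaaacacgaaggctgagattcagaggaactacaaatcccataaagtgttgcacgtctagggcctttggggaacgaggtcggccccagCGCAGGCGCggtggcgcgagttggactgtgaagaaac
UQCRQ promoter, chr5:132866492-132866671, plus strand: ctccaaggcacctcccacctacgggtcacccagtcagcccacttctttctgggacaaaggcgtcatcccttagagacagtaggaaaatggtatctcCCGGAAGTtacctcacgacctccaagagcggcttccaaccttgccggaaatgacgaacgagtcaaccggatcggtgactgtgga
SDHB promoter, chr1:17054003-17054182, minus strand: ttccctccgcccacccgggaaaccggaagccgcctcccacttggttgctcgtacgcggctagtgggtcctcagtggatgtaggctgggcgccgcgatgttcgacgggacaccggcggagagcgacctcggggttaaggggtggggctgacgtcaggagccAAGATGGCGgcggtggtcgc
NDUFS3 promoter, chr11:47578924-47579103, plus strand: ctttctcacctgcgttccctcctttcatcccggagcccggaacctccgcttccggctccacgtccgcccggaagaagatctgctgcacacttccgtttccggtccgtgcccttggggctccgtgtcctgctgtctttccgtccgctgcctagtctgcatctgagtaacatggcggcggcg

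Of the 49 members, 41 had a RefSeq entry of 300 bases, 250 before and 50 from the start, and these were searched for letters on both strands of the kind bound by factors known to act on respiratory genes: GCGCNTGCG (NRF1), AAGATGGCG (YY1) and CCGGAAGT (the ETS family, to which GABPA belongs). No motif contains another. The NRF1 letters were in 15 of 41 members (36.6%) and in 8.05% of the 27305 promoters in all, the YY1 letters in 7 members (17.1%) and in 1.85%, and the ETS letters in 6 members (14.6%) and in 4.44%. Among the 22 members with an entry that fell at 6.0 μg/cm2 and 24 h, 9 held the NRF1, 1 the YY1 and 3 the ETS letters, and among the other 19 members 6, 6 and 3 did. In the sequences printed, UQCR10 held an NRF1 match across its start, UQCRQ an ETS match before it and SDHB a YY1 match after it, while those of NDUFB1 and NDUFS3 held none of the 3. These are matches of letters, not measured binding.

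At the lower doses few or no subunits passed. At 3.0 μg/cm2 and 24 h, NDUFB1 was the only one of 49 to fall and 0 rose, where 6.50% of all probes were lower and 5.69% higher. The call of NDUFB1 was lost without any single array of that comparison. The median of the 49 was −0.13 (−0.01 over all probes), 45 values were below 0, and 20 members were lower at an unadjusted p below 0.05. The share of all probes lower at that unadjusted threshold was smaller (3407 of 22096). Markers moved here too: CD68 rose by 1.29 and KRT19 by 0.41, and CD14, COL1A1, CDH1 and EPCAM fell by 0.56, 1.27, 0.76 and 0.60. The summed levels were 311 to 344 for epithelial, 0.864 to 0.903 for leukocyte and 0.11 to 0.136 for fibroblast markers, and their part in the result was not tested. The difference between 6.0 and 3.0 μg/cm2 at 24 h was tested on its own: NDUFB1 (−0.27 ± 0.06, adjusted p = 0.0343, limma) and UQCRQ (−0.20 ± 0.05, adjusted p = 0.0487, limma) were lower at the higher dose and 0 members were higher, where 5.35% of all probes were lower and 3.68% higher. That count was 0 without any single array of either dose.

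At 0.1, 1.0 and 1.5 μg/cm2, limma called 0 of the 49 members, as did the methods' t-test. Of all probes, 0%, 0.0190% and 3.43% passed. At an unadjusted p below 0.05 limma called 1, 2 and 1 members, all lower. A larger share of all probes than of members was lower at that unadjusted threshold at each of these doses (870 of 21698, 1789 of 21081 and 978 of 21021). The medians of the members were −0.10, −0.10 and −0.03, beside 0.01, −0.01 and 0.01 over all probes. The arrays of set A split by pair. Relative to the mean of the unexposed arrays, the median over the 49 members was −0.09 and −0.13 on the first and second unexposed arrays and 0.10 and 0.11 on the other two, but 0.00 and −0.01 and then −0.19 and −0.21 at 0.1 μg/cm2, and 0.00 and −0.03 and then −0.23 and −0.24 at 1.0 μg/cm2. Arrays 1 and 2 alone thus gave a median difference of 0.06 at 0.1 μg/cm2 and 0.07 at 1.0 μg/cm2, and arrays 3 and 4 alone −0.32 and −0.35. NDUFB1 shows the pattern in 1 gene, with 4.41, 4.39, 4.87 and 4.88 on the unexposed arrays and 4.68, 4.71, 4.17 and 4.15 at 0.1 μg/cm2. At 1.5 μg/cm2 the 2 pairs, which were scanned on different days, gave −0.18 and 0.13. At 0.1 μg/cm2 the split was widest in complex III, with medians of 0.01 and 0.05 and then −0.30 and −0.30, while in complex II they were −0.03 and −0.06 and then 0.05 and 0.05.

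**Figure D3:**
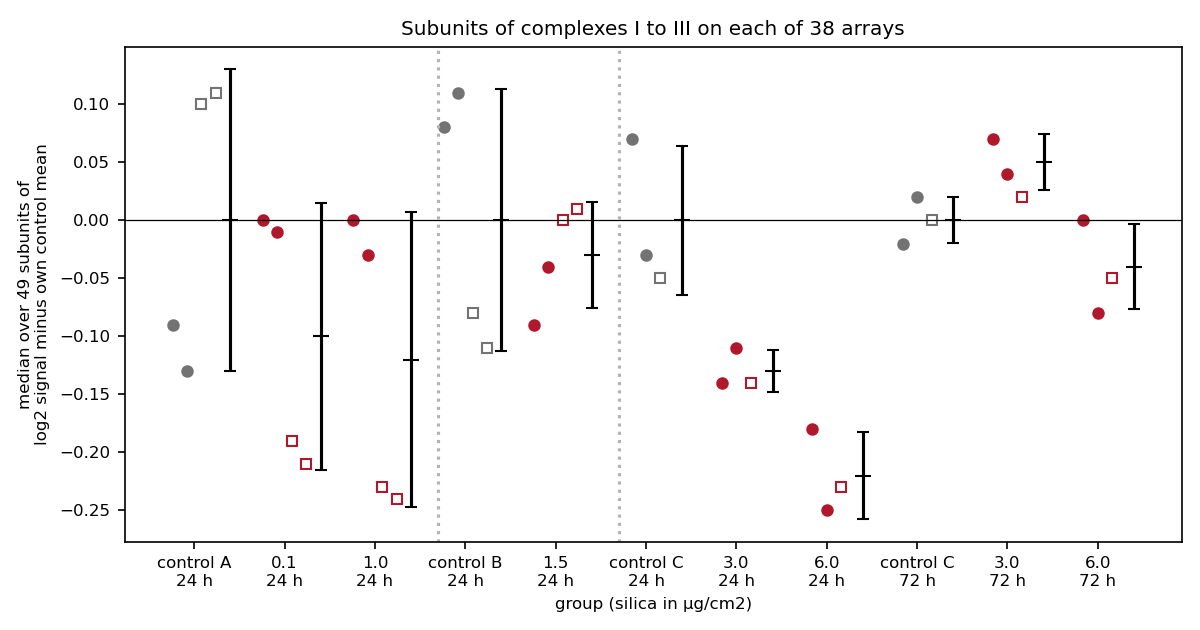
Median over the 49 subunits, on each of the 38 arrays, of the log2 signal minus the mean of the array's own control group (y axis), with filled circles for replicates 1 and 2 and open squares for replicates 3 and 4, and the mean and SD of each group in black. Exposed arrays of set A lie at −0.03 to 0.00 or at −0.24 to −0.19 by replicate, and all 3 arrays at 6.0 μg/cm2 and 24 h at −0.25 to −0.18.

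After 72 h the picture was mixed. At 3.0 μg/cm2, 5 of 49 members rose and 0 fell (12.9% of all probes were higher and 13.9% lower), and at 6.0 μg/cm2 4 rose and 5 fell (23.8% higher and 22.0% lower). The medians were 0.03 and −0.06, beside 0.03 and 0.04 over all probes. With quantile normalization 3 rose and 13 fell at 6.0 μg/cm2, and 4 rose and 0 fell when the deposited values replaced the scanner's processed signal, so that the split between rising and falling members at this dose and time moved with these settings. The exposed arrays at 72 h were scanned on a later day than their controls and on other slides, so scan day and exposure cannot be told apart here. All 5 epithelial markers fell at 6.0 μg/cm2 (median −0.43, CDH1 −1.42, EPCAM −1.17), with a summed level of 294 to 335 against 368 to 417 in unexposed cells. COL1A1 (−1.65), LUM (−2.03) and CD14 (−1.39) fell too and CD68 rose by 0.61, with summed levels of 1.54 to 1.71 against 2.88 to 3.04 for leukocyte markers and 0.0555 to 0.0755 against 0.183 to 0.204 for fibroblast markers. At 3.0 μg/cm2 3 of the 5 epithelial markers fell, as did COL1A1 (−1.09), LUM (−0.91) and CD14 (−0.59), with summed levels of 321 to 376 for epithelial, 2.15 to 2.23 for leukocyte and 0.0974 to 0.112 for fibroblast markers. The part of these markers in the result was not tested.

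The members that rose were led by SDHB. It was at 2.46, 2.38 and 2.40 on the unexposed arrays at 72 h, at 2.74, 2.84 and 2.76 at 3.0 μg/cm2 and at 2.88, 2.87 and 2.95 at 6.0 μg/cm2, without overlap between any of the 3 groups. It rose by 0.36 ± 0.05 (adjusted p = 0.00713, limma) and 0.49 ± 0.06 (adjusted p = 0.00119, limma), a fold change of 1.29 and 1.40, while the other 3 subunits of complex II had values from −0.03 to 0.19 by their brightest probes and did not pass. Less bright probes differed: those of SDHA had −0.22, −0.21 and −0.19 at 3.0 μg/cm2, 1 of them passed lower at 6.0 μg/cm2 (−0.27, adjusted p = 0.0396, limma), and 1 of SDHD passed higher at 3.0 μg/cm2 (0.17, adjusted p = 0.0449, limma). NDUFS3 was at 3.27, 3.14 and 3.15 without silica, at 3.49, 3.53 and 3.42 at 3.0 μg/cm2 and at 3.43, 3.58 and 3.60 at 6.0 μg/cm2. Both exposed groups lay above the controls and overlapped each other (0.29 ± 0.06, adjusted p = 0.0198, and 0.35 ± 0.08, adjusted p = 0.0109, limma). NDUFV3, an accessory subunit at the NADH-binding end, went from 2.68, 2.67 and 2.72 to 2.98, 3.05 and 3.02 and to 2.96, 2.98 and 3.12 (0.32 ± 0.05, adjusted p = 0.00741, and 0.33 ± 0.07, adjusted p = 0.00831, limma). It too had exposed groups that overlapped each other and not the controls. NDUFB8 (0.24) and NDUFB2 (0.18) also rose at 3.0 μg/cm2, and CYC1 rose at 6.0 μg/cm2, from 4.19, 4.06 and 4.00 to 4.32, 4.30 and 4.43 (0.26 ± 0.08, adjusted p = 0.0290, limma). A second probe of NDUFB8 had 0.07 at 3.0 μg/cm2 and did not pass.

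By the brightest probe of each gene, the 5 members that fell at 6.0 μg/cm2 and 72 h were all accessory subunits of complex I: NDUFB1 (−0.24 ± 0.07, adjusted p = 0.0301, limma), NDUFA2 (−0.22 ± 0.06), NDUFB4 (−0.22 ± 0.07), NDUFB6 (−0.20 ± 0.06) and NDUFS4 (−0.19 ± 0.06). NDUFB1 was at 4.69, 4.76 and 4.75 in unexposed cells and at 4.59, 4.44 and 4.46 in exposed ones. NDUFA2 was at 4.64, 4.73 and 4.71 and at 4.45, 4.43 and 4.54, again without overlap. A second probe of UQCRB, of complex III, passed lower at both doses (−0.27 at 3.0 μg/cm2 and −0.37 at 6.0 μg/cm2, adjusted p = 0.0222 and 0.013, limma), where its brightest probe had 0.04 and −0.11. Of the 26 members that fell at 24 h at this dose, 4 (15.4%) fell at 72 h too, beside 22.0% of all probes lower at 72 h. These 4 were 80% of the 5. Of the 26, 18 had a value below 0 at 72 h, as did most of the 49 members. The overlap between the times over all probes was not counted. The 9 calls at this dose and time were 5, 2 and 3 without control replicates 1, 2 and 3 and 3 without exposed replicate 2, and the 5 calls at 3.0 μg/cm2 were 2 without control replicate 2 or 3 or exposed replicate 2. The difference between 6.0 and 3.0 μg/cm2 at 72 h passed for 0 of 49 members (limma), where 16.8% of all probes passed. At an unadjusted p below 0.05 limma called 9 members, all lower, a share near that of all probes called lower (3735 of 21609). The methods' t-test called 5.

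Unexposed cells changed too between 24 h and 72 h, on arrays that shared slides. In them 23 members rose and 2 fell, where 34.3% of all probes were higher and 24.9% lower, and the median was 0.17 (0.06 over all probes). In complex I, 5 of the 6 core subunits rose, by 0.20 for NDUFS1, 0.21 for NDUFV2, 0.33 for NDUFV1, 0.49 for NDUFS7 and 0.53 for NDUFS8. NDUFS8 moved furthest, from 4.60, 4.52 and 4.51 at 24 h to 5.03, 5.09 and 5.10 at 72 h (± 0.05, adjusted p = 0.000464, limma), and NDUFS3 had 0.03. In complex III 7 of 9 rose, CYC1 and UQCRC1 by 0.50 each and UQCR11 by 0.44. In complex II none rose by its brightest probe and SDHC fell by 0.22, beside NDUFA8 of complex I, which fell by 0.19. The other probes of complex II disagreed: all 3 other probes of SDHA rose (0.66, 0.37 and 0.49), those of SDHC had 0.28 and −0.48, and both of SDHD fell by 0.26. A second probe of NDUFA10 rose by 0.86, where the brightest had 0.07. Those of NDUFC2 and NDUFB8 passed with −0.51 and 0.29, where the brightest had −0.04 and 0.17 and did not. The other probes of UQCR10 (0.07 and 0.15) and UQCRH (0.15) did not pass, where the brightest rose by 0.21 and 0.20. Markers moved as well, with CD14 up by 3.39, CD68 by 0.56, EPCAM by 0.48, KRT18 by 0.27, KRT19 by 0.20, VWF by 0.42 and CDH5 by 0.27, and COL1A1 down by 0.44. The summed level went from 0.536 to 0.559 at 24 h to 2.88 to 3.04 at 72 h for leukocyte markers, and from 325 to 354 to 368 to 417 for epithelial ones. Their part in the result was not tested.

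The response to silica itself differed between the times for part of the members. Tested as an interaction, the 72 h response was higher than the 24 h response for 14 members at 3.0 μg/cm2 and for 17 at 6.0 μg/cm2, and lower for 0 in both, where 10.7% and 20.4% of all probes were higher and 9.87% and 17.5% lower. The largest differences at 6.0 μg/cm2 were those of NDUFS3 (0.50 ± 0.09, adjusted p = 0.00208, limma), NDUFB3 (0.49 ± 0.09, adjusted p = 0.0021, limma) and NDUFV3 (0.45 ± 0.08, adjusted p = 0.00131, limma). NDUFB3 had −0.40 at 24 h and 0.09 at 72 h, NDUFS3 −0.16 and 0.35, and NDUFV3 −0.12 and 0.33, so the sign of the value differed between the times in each. NDUFB1 had −0.59 and −0.24, with a difference of 0.35 ± 0.10 (adjusted p = 0.0188, limma), and SDHB 0.18 and 0.49, with a difference of 0.31 ± 0.09 (adjusted p = 0.0206, limma). With quantile normalization the counts were 4 and 5, and without single arrays they went down to 5 (without the array 3.0 μg/cm2, 24 h, replicate 3) and 10 (without the arrays 6.0 μg/cm2, 24 h, replicate 2 or 3). The others that passed at 6.0 μg/cm2 were UQCRFS1, UQCR10 and UQCRH of complex III, SDHA, and NDUFA4, NDUFA6, NDUFA8, NDUFA10, NDUFA11, NDUFA12, NDUFB2 and NDUFS6, with differences of 0.23 to 0.39. The difference of SDHA rests on its brightest probe: its other 3 probes had −0.16, −0.17 and −0.09 at 24 h and −0.22, −0.20 and −0.27 at 72 h at 6.0 μg/cm2. That of NDUFA10 does too, as its other probe had −0.04 at 24 h and −0.08 at 72 h at this dose. The scan day and slide of the exposed arrays at 72 h touch these differences as well.

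The rest of the oxidative phosphorylation system was read from lists of genes that work with these complexes. At 6.0 μg/cm2 and 24 h, 11 of 16 ATP synthase subunits fell (median −0.25), 4 of 11 complex IV subunits (−0.19), 7 of 25 assembly factors of complexes I to III (−0.08) and 3 of 14 genes of electron carriers and ubiquinone synthesis (−0.08), and 0 rose in each, beside 20.0% of all probes lower and 14.2% higher. The assembly factors (28%) and the carriers (21.4%) lay near that background. By 72 h at this dose, where 23.8% of all probes were higher and 22.0% lower, 10 assembly factors rose and 2 fell, with NDUFAF4 (0.71) and NDUFAF6 (0.64), which help to build complex I, and SDHAF4 (−0.61), which helps to build complex II, as the largest changes. Among the carriers 5 rose and 4 fell, with PDSS1, which makes the side chain of ubiquinone (0.93), CYCS, cytochrome c (0.48), and COQ4 (0.33) among those that rose and COQ9 (−0.33), COQ6 (−0.28), COQ7 (−0.24) and ETFDH (−0.22) as those that fell. These shares, 35.7% higher and 28.6% lower, were not far from those of all probes. ATP5MC1 (0.26) and ATP5PB (0.23) rose in ATP synthase, and in complex IV COX5A rose by 0.35 while COX7A2 and COX7B fell by 0.30 and 0.20. Of 14 regulators of mitochondrial biogenesis 6 rose and 1 fell: the coactivator PPARGC1A had −1.07 ± 0.08, and its relatives PPARGC1B and PPRC1 had 0.88 ± 0.09 and 0.68 ± 0.07 (limma, adjusted p = 0.000197, 0.000434 and 0.000423). PPARGC1A was dim, at −5.07 on average in exposed cells and −4.01 in unexposed ones. At 24 h and this dose 2 regulators rose and 2 fell.

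**Figure D4:**
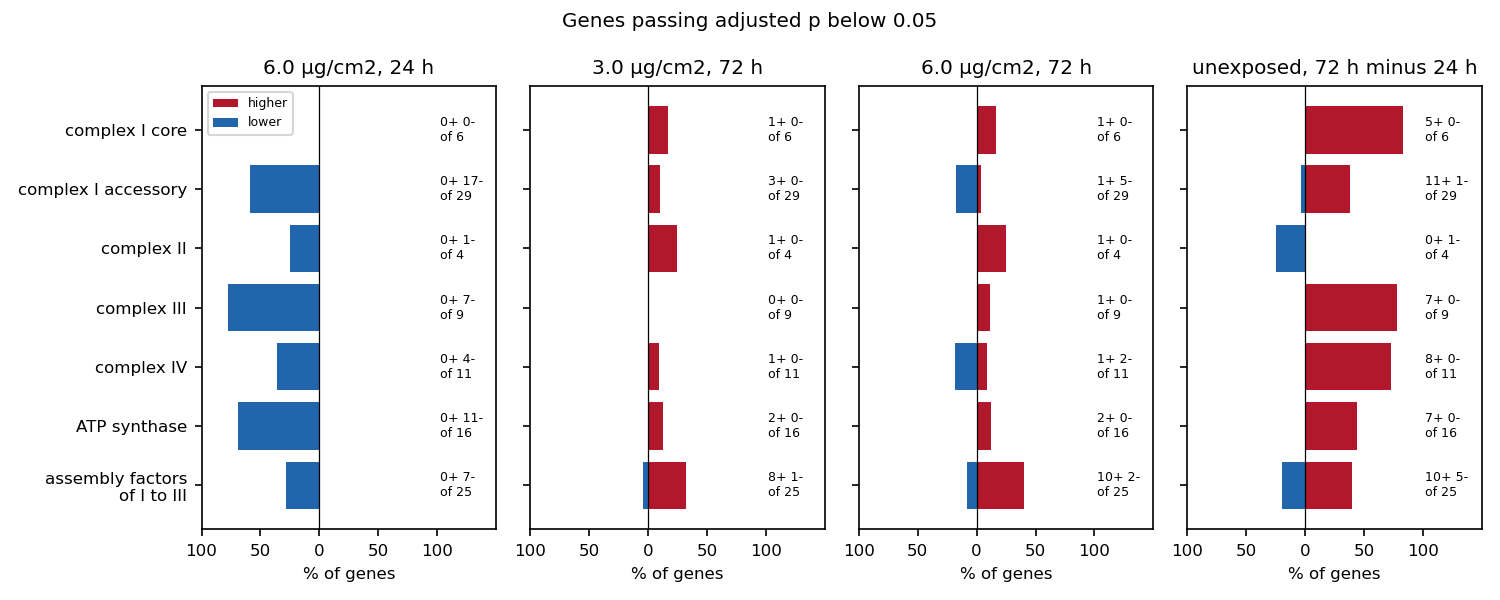
Share of genes (x axis, %) with an adjusted p below 0.05 (limma), higher in red to the right and lower in blue to the left, in 7 groups of respiratory chain genes and 4 comparisons, with the counts printed beside each bar; NDUFA4 is not in the accessory group here. At 6.0 μg/cm2 and 24 h the bars point to lower values in 6 of the 7 groups, and complex I core has none.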

How the data were processed

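RNA of A549 cells was hybridised on 38 single-colour Agilent arrays. The authors deposited scanner output of Agilent Feature Extraction (version 10.10.1.1 for set A and 11.0.1.1 for sets B and C), whose values are spot intensities, and a table of values, all 1690810 of which lay within 0.01 of the scanner's median signal. From these, log2 of the processed signal minus each array's 75th percentile was computed, leaving out control spots and spots flagged as outliers and averaging the spots of a probe. Of 34127 probes, 25715 had a gene symbol through their accession (RefSeq, GRCh38.p14). Probes were tested if 1 or both groups compared had them well above background throughout, and a gene was read from its probe with the highest mean over 38 arrays. Groups came from the sample labels. Each comparison was fitted with limma 3.58.1 (statmod 1.5.0, version 1.17.8 of data.table, R 4.3.3), with Benjamini-Hochberg adjustment over all probes tested and a threshold of 0.05, and responses at 72 h and 24 h were compared as an interaction term. The methods' unpaired t-test with the same adjustment, and an added minimum fold of 1.5, were alternatives. Others changed the background correction (normexp, offset 50), normalization, filter, spots kept, probe of a gene, arrays in the fit, values used, and slide, scan day or replicate number as a block, or left out arrays. The fits were tested on simulated data. Python 3.11.15, pandas 2.3.3 and matplotlib 3.10.9 served for sequences and plots.

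Members and lists were chosen with earlier results of these data known. Named with values were members that passed and changed 1.5-fold or more, the members of each complex with the largest changes in each direction that passed at 6.0 μg/cm2 at either time, and catalytic subunits, and outside the list at most 3 genes a list. NDUFB3, NDUFB4 and others beyond this rule are given after their values were seen. The number of arrays limits the precision. Mitochondrially encoded subunits were not analysed here.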

Additional observations from a re-analysis of the deposited data

Results flagged for a closer look

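The response to silica differed between 72 h and 24 h by the interaction test (limma) for 14 subunits at 3.0 μg/cm2 and for 17 at 6.0 μg/cm2, all of them with the higher log2 fold change at 72 h. Among the named members at 3.0 μg/cm2 the difference was 0.25 for NDUFA4, 0.39 for NDUFS3, 0.47 for NDUFV3, 0.34 for SDHA and 0.30 for SDHB. At 6.0 μg/cm2 it was 0.25 for NDUFA4, 0.35 for NDUFB1, 0.50 for NDUFS3, 0.45 for NDUFV3, 0.33 for SDHA, 0.31 for SDHB and 0.27 for UQCR10. The differences of SDHA rest on its brightest probe, since its other 3 probes had values of −0.16, −0.17 and −0.09 at 24 h and −0.22, −0.20 and −0.27 at 72 h at 6.0 μg/cm2. The time of exposure of the treated arrays and their scan day cannot be told apart. A search for single arrays far from the others of their group, in groups of 4 arrays, found none in 55 tests, where chance gives about 1 in 20 for independent arrays. Where the 4 arrays fell into pairs, the widest gap often lay between the pairs, and the search could then hardly flag a single array. The groups of 3 arrays in set C were not searched.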

How the results depend on the processing

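None of the results named for single members changed direction in the alternatives run for them, which was not counted for other members, and the median of the members changed sign at 0.1, 1.0 and 1.5 μg/cm2 within pairs of arrays and at 3.0 μg/cm2 and 72 h with quantile normalization, as given here. Of 246 alternatives for single named members, 197 kept the call and 49 lost it; the calls of NDUFB1, NDUFA4 and UQCR10 at 6.0 μg/cm2 and 24 h and those of SDHB and NDUFV3 at 72 h held in all of these, which do not include the added fold change: with it, NDUFB1 at 6.0 μg/cm2 and 24 h alone of these kept its call. Replicate numbers did not pair the arrays throughout: the correlations of same-numbered deviations were not all over 0.1 in any comparison, and at 1.0 μg/cm2 they were −0.352 to −0.555. Where the same number meant the same slide, pairing was seen in some comparisons and not in others. At 6.0 μg/cm2 and 24 h the values were 0.0836, −0.0164 and −0.0252, and no exposed array correlated most with its own number. At 1.5 μg/cm2 they were 0.426, 0.0392, 0.213 and 0.357. Between unexposed cells at 72 h and 24 h each array correlated most with its own number, though weakly (0.0226, 0.0915 and 0.0854). At 3.0 μg/cm2 and 24 h the values were 0.135, 0.164 and 0.0154. With the replicate number as a block, the counts were 0 at 3.0 μg/cm2 and 24 h, 2 at 3.0 μg/cm2 and 72 h and 3 at 6.0 μg/cm2 and 72 h. Over arrays 1 and 2 alone, 10 members passed at 0.1 μg/cm2 (10 rose) and 5 at 1.0 μg/cm2 (4 rose), and over arrays 3 and 4 alone 33 (31 fell), 37 (34 fell) and 6 at 1.5 μg/cm2 (6 rose), with medians of 0.06, 0.07 and −0.18, then −0.32, −0.35 and 0.13; these settings were chosen after seeing the data. The share of all probes passing over such pairs alone was not counted. Arrays of a pair may be technical repeats, so these counts are not read as a change of the respiratory genes. A random block for these pairs gave 0 calls at the 3 doses.

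At 3.0 μg/cm2 and 24 h the 1 call became 2 with normexp, a stricter filter or the mean of a gene's probes, 8 with all arrays of the set in 1 fit, and 0 with no filter, the added fold change, the methods' t-test, a slide block or the value table, and 0 to 0 without single arrays. The 26 calls at 6.0 μg/cm2 and 24 h became 8 with normexp, which moved the median of all probes to 0.10, 17 with no filter, 1 with the fold change, and 15 to 22 without single arrays; quantile normalization moved the median to −0.16. At 72 h the 5 calls at 3.0 μg/cm2 became 2 with no filter, 0 with the fold change and 2 to 4 without single arrays, and the quantile median was −0.02. The 9 at 6.0 μg/cm2 and 72 h became 16 with quantile normalization (median −0.13), 3 with no filter, 0 with the fold change, 15 in 1 fit, 4 with the value table, and 2 to 8 without single arrays. In unexposed cells the 25 became 0 with the fold change and 17 to 28 without single arrays. The differences between times became 4 and 5 with quantile normalization (medians 0.07 and 0.03), 5 and 11 with no filter, 0 and 0 with the fold change, and 5 to 14 and 10 to 17 without single arrays. Between the doses at 24 h the 2 calls became 0 with normexp, no filter, the fold change or the value table, 4 with the methods' t-test, 5 in 1 fit, and 0 to 0 without single arrays, and at 72 h the 0 calls became 2 with normexp, 4 with quantile normalization, 5 with the t-test, 9 in 1 fit, 1 with the value table, 1 with the mean of probes, and 0 to 2 without single arrays. A slide block could not be fitted for the exposures at 72 h against their controls. The causes were not tested.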
